A study of Rattus norvegicus with 6 samples.

Results

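Aminoacyl-tRNA synthetases load each amino acid onto the transfer RNAs (tRNAs) that carry it to the ribosome. The genes described here are the cytosolic synthetases, the mitochondrial synthetases and the scaffold genes Aimp1 and Aimp2, picked from the gene table by symbol and not by any measured value. The symbols matched 39 of the 24360 gene rows: 20 cytosolic synthetases, 17 mitochondrial synthetases and 2 scaffolds. A symbol ending in 2 marks a mitochondrial enzyme in this family, with the exception of Aimp2, which was kept with the scaffolds.

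RNA was measured in wild-type H9c2, a rat line of embryonic heart origin that divides as myoblasts in culture. There were 3 samples in the control group (Ctrl, whose treatment label is NC) and 3 in the ginsenoside Rb2 group (Rb2, a ginseng saponin). The protocol text describes 48 h of Rb2, then 4 to 6 h without oxygen and glucose, then 12 h with both restored. That text is shared by both groups, and whether the controls were deprived is not given, so the comparison is Rb2 against Ctrl as labelled. Separate cultures are not stated either, and the p-values reflect sample-to-sample spread that may be purely technical.

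Each cytosolic synthetase charges tRNAs for translation of nuclear-encoded messages, and most amino acids have a separate, nuclear-encoded enzyme that charges tRNAs inside mitochondria. Gars and Kars each encode both the cytosolic and the mitochondrial enzyme, and Eprs joins glutamyl- and prolyl-tRNA synthetase in a single protein. Eprs, Iars, Lars, Mars, Qars, Rars, Kars and Dars sit in a multi-synthetase complex held together by the scaffolds Aimp1, Aimp2 and AIMP3, the product of Eef1e1. Uncharged tRNA activates the kinase GCN2 (Eif2ak4), which phosphorylates eIF2 alpha and favours translation of Atf4, and ATF4 is known to activate many cytosolic synthetase genes through C/EBP-ATF response elements. In heart muscle these enzymes serve a protein synthesis that is costly and sensitive to the supply of oxygen and glucose.

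Total counts ran from 5193077 to 8793390 per sample, and Ctrl replicate 1 was both the deepest library and the farthest from the rest, at -47.0 on the first principal component of log2 CPM (counts scaled to the library total) against -18.1 to 23.8 for the other libraries. The mean gene length per count was 1693 to 1747 bases in Ctrl and 1761 to 1767 bases in Rb2. The label names embryonic cardiomyocytes. Of 12 cardiac marker genes 10 were in the table and 4 passed the filter on low counts, with the sarcomere gene Actc1 at 0 in all samples. The 4 averaged, in Ctrl and Rb2, 52.9 and 45.3 CPM (Tnnt2), 6.48 and 6.93 CPM (Gata4), 2.38 and 4.66 CPM (Nkx2-5), and 2.47 and 1.90 CPM (Mybpc3). Of 8 skeletal muscle and myoblast markers 7 were in the table and 4 passed the filter, while Chrna1, Myh3 and Ckm did not. The myoblast regulator Myod1 averaged 12.4 CPM in Ctrl and 15.8 CPM in Rb2, and the cardiac list summed to 58.5 to 78.0 CPM in Ctrl and 57.0 to 66.0 CPM in Rb2. Smooth muscle and fibroblast markers summed to 4117 to 4886 CPM in Ctrl and 4027 to 4295 CPM in Rb2, and skeletal muscle markers to 35.3 to 46.1 and 41.6 to 46.4 CPM. The leukocyte marker Ptprc and the epithelial markers Epcam, Cdh1 and Krt18 were at 0. A further epithelial marker, Krt8, averaged 36.8 CPM in Ctrl and 36.1 CPM in Rb2. The leukocyte list summed to at most 1.92 CPM in Ctrl and 2.39 CPM in Rb2. Of 4 endothelial markers 1, Tek, was in the table and reached at most 0.173 CPM. None of the marker genes tested was called. In a culture of this kind, fewer cells of a type and less RNA per cell cannot be told apart.

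All 39 genes had at least 1 count in every sample, and together they took 0.194%, 0.206% and 0.219% of the counts in Ctrl replicates 1 to 3 and 0.224%, 0.220% and 0.221% in the Rb2 replicates. Levels between genes are compared as CPM per kb of the deposited gene length, averaged over the 6 samples and scaled by TMM, a normalization that removes differences in library composition. Identifiers of the new transcript models start with the letters ONT, a form used for long reads, although a short-read library kit is named in the labels, and how the counts were made is not given in the sources used here. If reads were long, a count would not grow with gene length and CPM would be the level to compare, so the order per kb and the transcript shares below hold only as far as that is settled. On that scale Sars, the seryl-tRNA synthetase, stood highest at 102.7 CPM per kb. It was followed by the scaffolds Aimp1 (97.6 CPM per kb) and Aimp2 (87.4 CPM per kb). The asparaginyl enzyme Nars (62.4 CPM per kb), Eprs (51.3 CPM per kb), the glycyl enzyme Gars (49.95 CPM per kb) and the tyrosyl enzyme Yars (49.4 CPM per kb) came next. Among cytosolic genes the lowest were the isoleucyl enzyme Iars (1.43 CPM per kb) and the tryptophanyl enzyme Wars (2.67 CPM per kb).

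The mitochondrial enzymes lay mostly below the cytosolic ones. Their highest members were the threonyl enzyme Tars2 (11.5 CPM per kb) and the glutamyl enzyme Ears2 (9.95 CPM per kb), and 15 of the 20 cytosolic genes were above both. Vars2, the mitochondrial valyl enzyme, was lowest at 0.188 CPM per kb. Of the 17 mitochondrial genes 12 averaged under 10 CPM before length scaling, against 1 cytosolic gene, Iars. Set beside the cytosolic gene for the same amino acid in 16 pairs, the cytosolic gene was higher per kb in 15, with a median of 15.5-fold over the pairs, and up to 99.9-fold for Nars over Nars2. The exception was isoleucine, where Iars stood at 0.472 times Iars2.

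**Figure D1:**
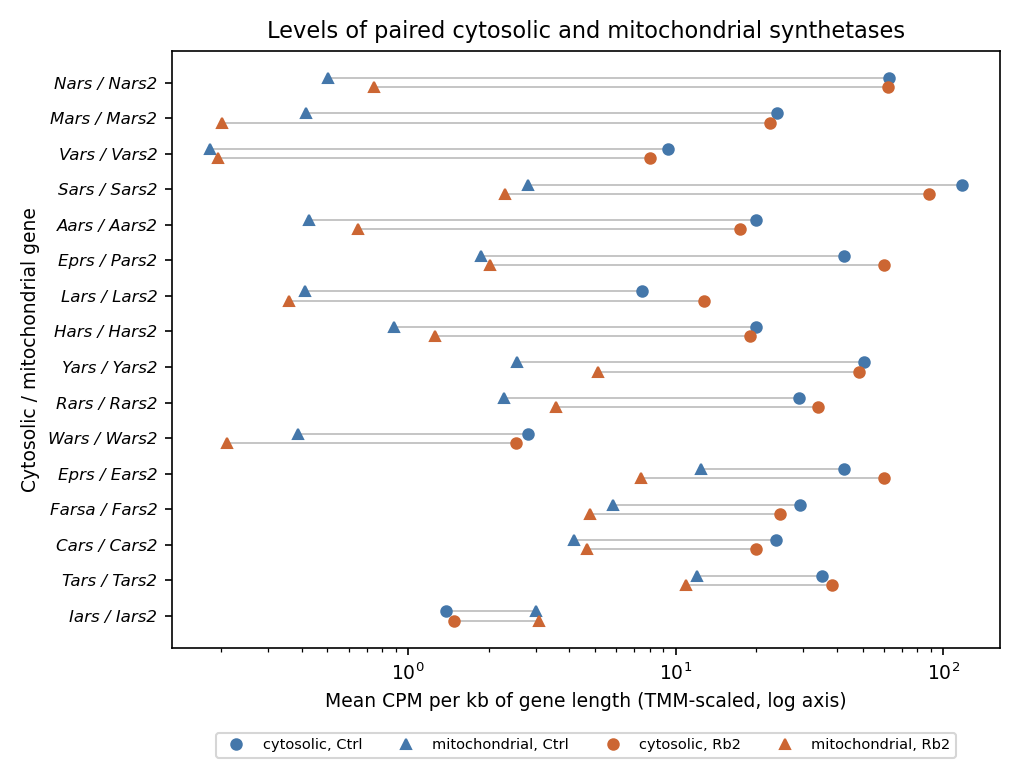
Mean level of each cytosolic gene (circles) and its mitochondrial counterpart (triangles) in Ctrl (blue) and Rb2 (orange), in CPM per kb on a log axis, n = 3 per group, with a grey line joining the genes of a pair. The cytosolic gene lies to the right in 15 of 16 pairs, and the Eprs and Ears2 points move apart in Rb2.

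The filter on low counts left 35 of the 39 genes for testing: all 20 cytosolic genes, 13 mitochondrial genes and both scaffolds. With edgeR's quasi-likelihood test and an adjusted p under 0.05 as a call, 3 of the 35 changed (8.57%, against 2.70% of all 11551 genes tested and 2.98% of the known genes). Eprs and Lars rose, against a background of 1.90% of genes called higher, and Ears2 fell, against 0.805% called lower. With so few calls these shares are a description and not a property of the family. At an unadjusted p under 0.05 stood 9 of the 35, where 20.0% of all genes tested did. In TMM-scaled CPM the Rb2 and Ctrl values did not overlap in 11 of the 35, with 5 genes higher and 6 lower in Rb2. On that scale the same was true of 27.2% of all genes tested (15.0% higher, 12.2% lower) and of 28.7% of the known genes.

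The median log2 fold change of Rb2 over Ctrl was -0.07 for the cytosolic genes, 0.18 for the mitochondrial genes and -0.20 for the scaffolds, beside -0.02 for all genes tested. Without the filter the mitochondrial median, then over 17 genes, was 0.05. With library sizes alone in place of TMM the median of all genes was 0.10, and the medians of the 3 groups moved up with it to 0.04, 0.29 and -0.08, so the sign of the cytosolic median depends on the scaling. The sum over the 17 mitochondrial genes was 132.6 ± 10.4 CPM in the controls against 129.1 ± 9.8 CPM with Rb2 (mean ± SD, n = 3 each), with overlapping groups. The cytosolic sum was 1801 ± 72.5 and 1820 ± 51.9 CPM. Within that total the complex enzymes and the other cytosolic enzymes lay on different sides. The 8 complex enzymes summed to 516.8, 530.1 and 575.0 CPM in Ctrl and 707.4, 622.7 and 631.8 CPM in Rb2, so that every Rb2 value lay above every Ctrl value. The 12 others summed to 1260 ± 49.8 CPM in Ctrl and 1166 ± 5.7 CPM in Rb2, with every Rb2 value below every Ctrl value. In the deposited CPM, which are not TMM-scaled, the complex sum was still higher in every Rb2 sample than in any control, while the sum of the 12 others overlapped. Each shift rested on its most abundant member: without Eprs the complex sum was 321.0 ± 45.4 and 344.4 ± 15.3 CPM, and without Sars the other sum was 916.6 ± 52.2 and 908.5 ± 10.3 CPM, with overlap in both cases.

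**Figure D2:**
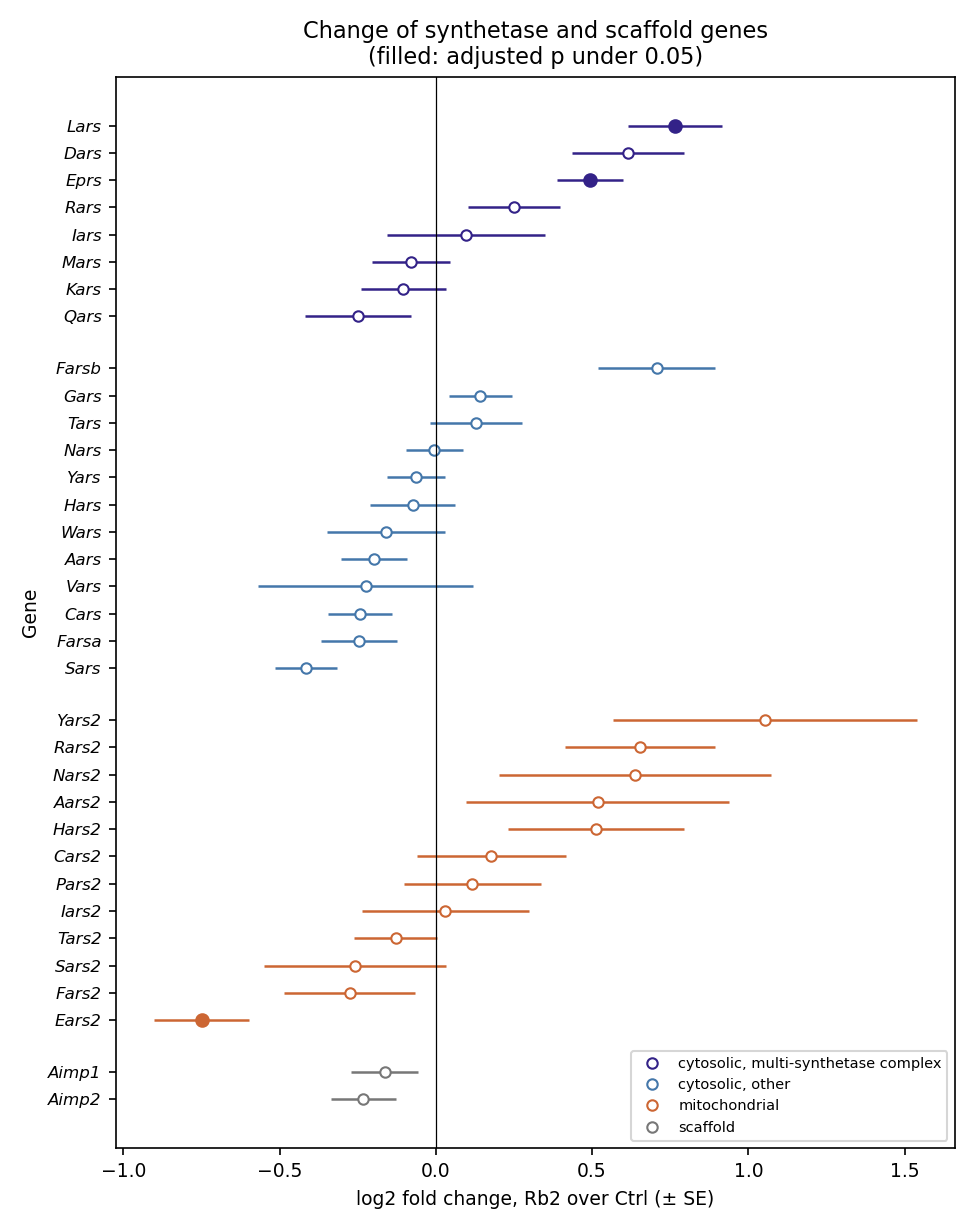
Log2 fold change of Rb2 over Ctrl with its standard error for the tested genes, grouped by role, with called genes marked (edgeR, adjusted p under 0.05, n = 3 per group). Lars, Eprs and Ears2 are the called genes, and the intervals are wider among the mitochondrial genes, whose counts are lower.

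Among the enzymes of the multi-synthetase complex, Eprs and Lars rose in Rb2 and the other 6 were not called. The median log2 fold change of the 8 was 0.17, with 5 above and 3 below 0. Eprs (ENSRNOG00000002393), the most abundant of them, measured 237, 217 and 205 CPM in Ctrl and 347, 280 and 302 CPM in Rb2. Every Rb2 sample was above every control, with Rb2 replicate 1 the highest. The change was 1.41-fold, a log2 fold change of 0.49 (SE 0.11, edgeR adjusted p = 0.0456). Lars (ENSRNOG00000018304), the leucyl enzyme, which is also known as a leucine sensor upstream of the growth kinase mTORC1, measured 28.6, 24.4 and 34.2 CPM in Ctrl and 51.8, 45.9 and 50.8 CPM in Rb2. The groups did not overlap here either, and the gap between them was wider than the range within each. Lars rose 1.70-fold, a log2 fold change of 0.77 (SE 0.15, edgeR adjusted p = 0.0376).

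Both are long genes, 5153 and 3892 bases against a median of 2021 over all genes tested, and the Rb2 libraries held more counts on long genes. With an offset for gene length in each library, the log2 fold change was 0.35 for Eprs (edgeR adjusted p = 0.0959) and 0.63 for Lars (adjusted p = 0.0516), both short of a call. Without Ctrl replicate 2 or any single Rb2 replicate, neither Eprs, Lars nor Ears2 was called, with adjusted p between 0.133 and 0.189 in edgeR. In those fits the calls over all genes also dropped, from 219 higher and 93 lower to at most 25 higher and 14 lower.

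Dars, the aspartyl enzyme, measured 17.6, 21.5 and 26.6 CPM in Ctrl and 33.1, 37.1 and 30.0 CPM in Rb2. The groups did not overlap, but the gene was not called (log2 fold change 0.62, SE 0.18, edgeR adjusted p = 0.0964). Qars, the glutaminyl enzyme, spread from 65.9 to 108 CPM within Ctrl alone and gave -0.25 (adjusted p = 0.445). The arginyl enzyme Rars stood at 0.25, the lysyl enzyme Kars at -0.10, the methionyl enzyme Mars at -0.08 and Iars at 0.10 on the log2 scale, each with overlapping groups. In 7 of the 8 genes the log2 fold change was above 0 with library sizes alone, where Kars and Mars reversed to 0.01 and 0.03.

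**Figure D3:**
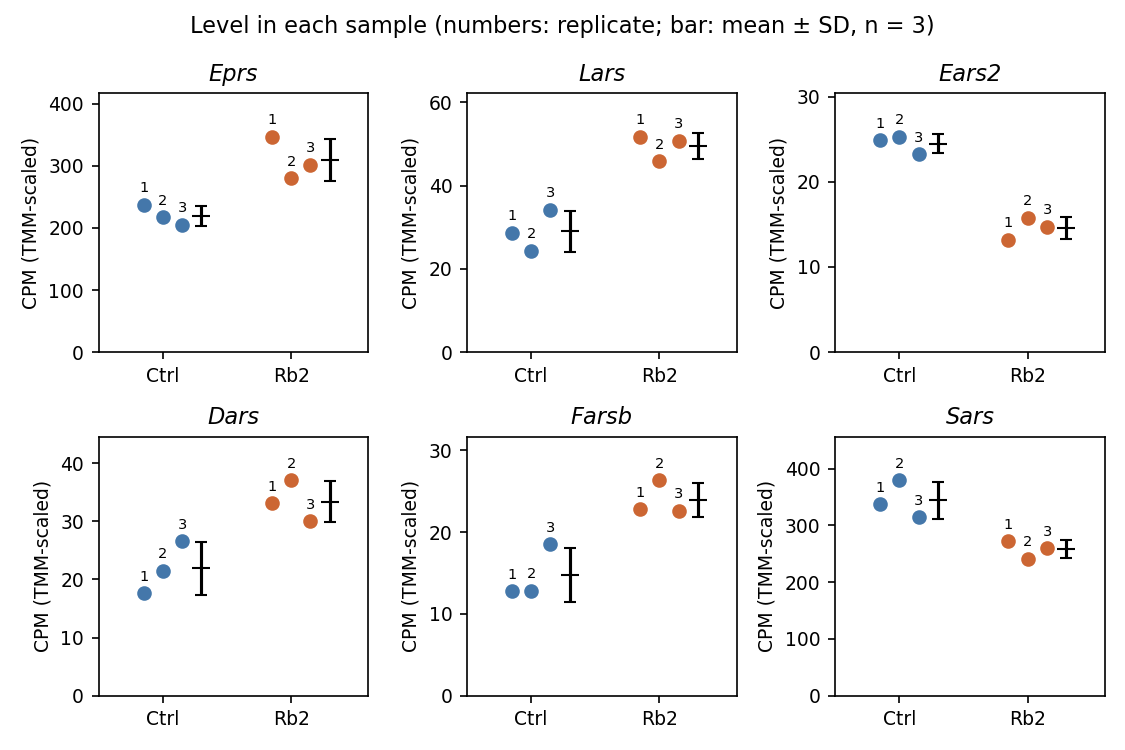
CPM (TMM-scaled) in each of the 3 Ctrl and 3 Rb2 samples for genes named in the text, with the mean and SD of each group; each panel has its own axis from 0. The groups are apart for Eprs, Lars and Ears2, and also for Dars, Sars and Farsb, which were not called.

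Among the 12 other cytosolic enzymes none was called, 3 had log2 fold changes above 0 and 9 below, and the median was -0.12 (6 above and 6 below with library sizes alone). Sars, the most abundant synthetase per kb, measured 337, 380 and 314 CPM in Ctrl and 272, 241 and 260 CPM in Rb2. All 3 Rb2 samples were below all 3 controls, and the test fell just short of a call (log2 fold change -0.42, SE 0.10, edgeR adjusted p = 0.0591). Lower Rb2 values without overlap were also seen for the cysteinyl enzyme Cars (77.7, 77.4 and 85.1 CPM against 66.6, 68.3 and 67.9 CPM), the alanyl enzyme Aars and Farsa. Their log2 fold changes were -0.24, -0.20 and -0.25, with adjusted p of 0.225, 0.331 and 0.295 in edgeR. In the deposited CPM, which are not TMM-scaled, Cars stayed apart, but Aars and Farsa overlapped.

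Farsa and Farsb encode the alpha and beta subunits of the cytosolic phenylalanyl enzyme, which work as a tetramer with equal numbers of each. Farsb measured 12.7, 12.8 and 18.5 CPM in Ctrl and 22.8, 26.3 and 22.6 CPM in Rb2. It was higher in every Rb2 sample than in any control, without a call (log2 fold change 0.71, SE 0.19, edgeR adjusted p = 0.0762). Farsa went the other way, so the level of Farsb per kb relative to Farsa was 0.154, 0.131 and 0.192 in Ctrl and 0.291, 0.326 and 0.303 in Rb2. The ratio did not overlap between the groups. In TMM-scaled CPM this follows from the groups of each gene, which did not overlap and lay in opposite directions, and is not a further result. In the deposited CPM, which are not TMM-scaled, the Farsb groups stayed apart but the Farsa groups overlapped. The ratio itself does not depend on that scaling. The Farsb message remained the scarcer of the pair in all 6 samples.

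The most even genes of this group were Nars and Yars. Nars ran from 154 to 173 CPM in Ctrl and from 159 to 173 CPM in Rb2 (log2 fold change -0.005, SE 0.09). Yars stood at -0.06 (SE 0.09), the histidyl enzyme Hars at -0.07, the threonyl enzyme Tars at 0.13, Gars at 0.14 and Wars at -0.16, all with overlapping groups. The valyl enzyme Vars gave -0.22 with a standard error of 0.34, and Ctrl replicate 1 held 62.7 CPM where the other 5 samples held 25.6 to 42.1 CPM. Without that library its log2 fold change was 0.29.

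The scaffold genes were not called. Aimp2 measured 100, 109 and 115 CPM in Ctrl and 97.2, 92.7 and 86.3 CPM in Rb2, lower in Rb2 without overlap (log2 fold change -0.23, SE 0.10, edgeR adjusted p = 0.249). In the deposited CPM, which are not TMM-scaled, the Aimp2 groups overlapped. Aimp1 had overlapping groups at -0.16 (SE 0.11, adjusted p = 0.428). Eef1e1, the gene of the AIMP3 scaffold, came from the list of genes that assist tRNA charging, and it measured 18.9, 26.0 and 32.5 CPM in Ctrl and 49.5, 52.2 and 45.6 CPM in Rb2. The Rb2 values were all above the controls, and the gene rose by 0.93 on the log2 scale (SE 0.19, edgeR adjusted p = 0.0414). The call was lost without Ctrl replicate 2 or any single Rb2 replicate (adjusted p from 0.131 to 0.199), with known genes only (0.0502) and with the length offset on known genes only (0.0513). Of the 3 scaffold messages of the complex, then, the rarest rose and the other two were not called. Among the 14 genes of that charging list that could be tested, Eef1e1 was the only call, and the median log2 fold change was 0.06.

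Among the 13 mitochondrial genes tested, Ears2 fell and 12 were not called. Of the log2 fold changes, 9 were above 0 and 4 below. That split depends on the filter. Nars2 (counts 5, 9 and 12 in Ctrl, 12, 13 and 11 in Rb2) and Aars2 (23, 5 and 7, then 12, 14 and 16) passed it only with their Rb2 samples. Without the filter the 17 genes gave 10 above and 7 below 0, with a median of 0.052. Ears2 (ENSRNOG00000025353), which charges the mitochondrial glutamate tRNA, measured 24.9, 25.3 and 23.2 CPM in Ctrl and 13.2, 15.8 and 14.7 CPM in Rb2. The groups were far apart and narrow, with a gap of more than the whole range of either. Controls were 1.68-fold higher, a log2 fold change of -0.75 (SE 0.15, edgeR adjusted p = 0.0413). Ears2 is a shorter gene of 1961 bases, and with the length offset its log2 fold change was -0.84 (adjusted p = 0.0364).

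Eprs and Ears2 attach the same amino acid, glutamate, in different compartments, and they changed in opposite directions. The level of Eprs per kb over that of Ears2 was 3.62, 3.26 and 3.36 in Ctrl and 10.0, 6.76 and 7.80 in Rb2. Every Rb2 ratio was above every control ratio, and the controls were close to each other. That separation follows from the groups of each gene, which did not overlap, and is not a further result. Over the 16 cytosolic and mitochondrial pairs, the ratio was higher in every Rb2 sample than in any control for Eprs over Ears2 and Mars over Mars2. It was lower without overlap for Nars over Nars2 and Rars over Rars2, and 12 pairs overlapped. A share over ratios of other genes was not made, and among single genes 27.2% of all tested did not overlap. The pairs are therefore a description. The Mars2 and Nars2 ratios rest on few counts.

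The next mitochondrial genes by p were Rars2 and Yars2, neither called. Rars2, the mitochondrial arginyl enzyme, measured 3.88, 6.15 and 5.77 CPM in Ctrl and 8.72, 8.49 and 7.36 CPM in Rb2. Its groups did not overlap (log2 fold change 0.65, SE 0.24, edgeR adjusted p = 0.166). Yars2, the mitochondrial tyrosyl enzyme, had the greatest log2 fold change of the 35 tested genes, 1.05, with a standard error of 0.49 and an adjusted p of 0.272. Ctrl replicate 3 held 7.51 CPM of Yars2 where the other controls held 1.70 and 2.71 CPM, and it overlapped the Rb2 values of 5.87, 9.36 and 8.83 CPM.

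Tars2, the most abundant mitochondrial enzyme per kb, gave -0.13 (SE 0.13, adjusted p = 0.633). The other genes spanned -0.28 for Fars2 to 0.64 for Nars2, through Sars2 at -0.26, Iars2 at 0.03, Pars2 at 0.12, Cars2 at 0.18, Hars2 at 0.51 and Aars2 at 0.52. The median standard error was 0.24 in the mitochondrial group and 0.14 in the cytosolic group, with median counts of 35.5 and 375 per sample, so a change of a given size was harder to detect among mitochondrial genes. Lars2, Mars2, Vars2 and Wars2 did not pass the filter and were not tested. Their counts ran from 3 to 11 for Lars2, 1 to 5 for Mars2, 2 to 9 for Vars2 and 2 to 8 for Wars2. Mars2 had 5, 4 and 5 counts in Ctrl and 1, 3 and 2 in Rb2, too few to set a level apart.

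Cytosolic synthetase promoters are a known site of the C/EBP-ATF response element, and the letters of its core, TGATGNAA, were searched on both strands in the RefSeq promoter windows (assembly GRCr8, 250 bases before to 50 after the start). Of the 39 genes 35 had a window. The core was found in 7 of the 17 cytosolic genes with a window (Iars, Mars, Aars, Cars, Nars, Tars and Yars). It was found in 0 of the 16 mitochondrial genes with a window, in 0 of the 2 scaffold genes and in 3.98% of all 33469 windows. A gene counted once if any of its windows held the core, and Mars2 had 3 windows. All 7 hold the form TGATGCAA, which is in 0.795% of all windows. Sites from 5 of the 7 genes are printed because they are the matches behind this count, with the core or its reverse complement in capitals and 10 bases on each side where the window allows. Each is written 5′ to 3′ on the strand of its gene: Iars at chr17:15193659-15193686 (minus strand), Mars at chr7:65023753-65023780 (minus), Cars at chr1:208225335-208225362 (minus), Tars at chr2:62114812-62114839 (minus) and Yars at chr5:146820191-146820212 (plus).
Iars: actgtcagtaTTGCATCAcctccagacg
Mars: cccgttccggTTGCATCAgcgtgggctc
Cars: ggcgccgcggTTGCATCAgattctggaa
Tars: tggcgtcccgTTGCATCAgctggttagc
Yars: cgagctcagcTGATGCAAcctg

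The core starts within 30 bases of the transcription start used for the window in Iars (-24), Mars (-17), Tars (-27), Cars (+18) and Nars (-14). That start is also the RefSeq gene start for Tars and Nars, but not for Iars, Mars and Cars. None of the 7 genes with the core was called. Their log2 fold changes ran from -0.24 to 0.13 with a median of -0.06, with 2 above and 5 below 0. The 10 cytosolic genes whose window lacked these letters had a median of -0.13, and they included the called genes Eprs and Lars as well as Sars. The match is a description of letters in this window and not of a bound site.

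In the same libraries the amino acid response genes were lower on balance. Of 26 tested, 5 fell, 1 rose and 20 were not called, with a median log2 fold change of -0.32 and 19 of the 26 below 0. Over all genes tested 48% of the log2 fold changes were above 0. With library sizes alone the list median was -0.20, with 18 of the 26 below 0 and 3 called lower. The background for calls is the same 1.90% higher and 0.805% lower. Atf4 itself measured 345, 382 and 365 CPM in Ctrl and 280, 261 and 250 CPM in Rb2. Every Rb2 value was below every control, and Atf4 fell by 0.46 on the log2 scale (SE 0.09, edgeR adjusted p = 0.0357). The stress-response genes Ddit3 (-0.75, adjusted p = 0.0192), Ppp1r15a, which directs dephosphorylation of eIF2 alpha (-0.90, adjusted p = 0.0318), Trib3 (-0.54, adjusted p = 0.0414) and the arginine and lysine carrier gene Slc7a1 (-0.68, adjusted p = 0.0430) also fell. The neutral amino acid carrier gene Slc38a2 rose by 0.49 (adjusted p = 0.0420). The cytosolic synthetases, with a median of -0.07 and 2 rises, were therefore nearer 0 than these list members, a difference that was not tested. Like the synthetase calls, these were lost without Ctrl replicate 2 or any single Rb2 replicate, and Slc38a2 was also lost with the length offset (adjusted p = 0.159), upper-quartile factors (0.0562) and known genes only (0.0558). With library sizes alone Slc7a1 and Trib3 were not called (adjusted p of 0.0584 and 0.0639), and Slc7a1 was not called without Ctrl replicate 3 (0.0512). The core was present in 5 of the 24 list genes with a window: Chac1, Nupr1, Pycr1, Slc7a1 and Trib3.

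Of the 4 eIF2 alpha kinase genes, 3 were tested and Eif2ak2, the kinase PKR that responds to double-stranded RNA, was at 2.68 ± 0.78 CPM in Ctrl and rose to 7.25 ± 1.19 CPM with Rb2 (mean ± SD, n = 3), a log2 fold change of 1.42 (edgeR adjusted p = 0.0369). The Eif2ak2 call was lost without Ctrl replicate 2 or any single Rb2 replicate (adjusted p from 0.0801 to 0.198), with known genes only (0.0524) and with the length offset on known genes only (0.0513). Of 10 mitochondrial translation factor genes tested, Guf1, which acts on mitochondrial ribosomes, was at 9.75 ± 1.61 CPM in Ctrl and rose to 17.7 ± 1.27 CPM with Rb2, by 0.87 on the log2 scale (adjusted p = 0.0456), and the list median was -0.05. Guf1 was not called with the length offset (adjusted p = 0.102), upper-quartile factors (0.0515) or known genes only (0.0558), nor without Ctrl replicate 2 or any single Rb2 replicate (0.134 to 0.222). None of the 7 cytosolic elongation factor genes tested was called; all 7 fold changes were below 0 with a median of -0.15, and the most abundant, Eef1a1, averaged 4973 CPM in Ctrl and 4941 CPM in Rb2. With library sizes alone 5 of the 7 were below 0, while 1 was called lower with the length offset, 2 without Ctrl replicate 1, and 6 with both (median -0.33).

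The transcript table holds 123 transcripts of the 39 genes, 51 of them annotated and 72 new models made by the authors, and their counts sum to the gene count in all 39. Of the 57 that passed the filter 0 were called in edgeR, as were 0 of all 16679 transcripts tested (0.00%). At an unadjusted p under 0.05 stood 13 of the 57, where 13.8% of all transcripts did, and DESeq2 called 3 of the 57, where it called 1.86% of all transcripts. Those were the annotated transcript Sars-201 (log2 fold change -0.44, DESeq2 adjusted p = 0.0110), Ears2-201 (-0.75, adjusted p = 0.0328) and the new Eprs model ONT.5687.8 (0.50, adjusted p = 0.00602). Nearly all Eprs counts lay on that model, 97.1% in Ctrl and 98.0% in Rb2, so the gene and the transcript carry the same change.

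Shares of a transcript within its gene were tested in the 18 synthetase and scaffold genes that had 2 or more transcripts left after filtering. None was called by edgeR's diffSpliceDGE, where 0.417% of 3361 genes were, and none had an unadjusted Simes p under 0.05, where 113 genes did. Lars counts were split between Lars-201 and the new model ONT.8454.2. Lars-201 took 64.8%, 60.7% and 43.9% in Ctrl and 61.9%, 43.8% and 50.7% in Rb2, with overlap, and both transcripts had log2 fold changes above 0 (0.68 and 0.86, neither called). The rise of Lars was not placed on a single transcript by these shares.

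Some shares stood apart between groups or samples. How often shares stood apart over all transcripts was not counted, so these are a description. In the called gene Eprs the minor model ONT.5687.3 took 2.51%, 2.59% and 1.45% in Ctrl and 1.39%, 1.30% and 1.22% in Rb2, without overlap. The other shares given here are from genes that were not called. The Farsa model ONT.8667.1 took 16.7%, 11.1% and 11.3% of Farsa counts in Ctrl and 5.10%, 6.67% and 7.23% in Rb2, without overlap. The Cars model ONT.1944.3 took 3.91%, 4.67% and 3.70% in Ctrl and 5.61%, 11.7% and 9.49% in Rb2, also without overlap. In the F test of usage from diffSpliceDGE, which pools all transcripts of a gene, Farsa and Cars were the only ones of the 18 genes under an unadjusted 0.05, where 11.1% of all genes were. Neither was called (edgeR adjusted p of 0.162 and 0.166), where 0.446% of all genes were. Vars-201 took 61.7%, 30.7% and 45.9% of Vars counts in Ctrl and 19.4%, 18.5% and 22.8% in Rb2, while Vars-204 was listed at 0 in Ctrl replicates 1 and 2, at 24.8% in Ctrl replicate 3 and at 5.56%, 62.1% and 43.0% in Rb2. The Vars-204 share thus differed widely within both groups, and how reads were assigned between the overlapping Vars models is not given in the sources used here. Qars-201 took 44.2% in Ctrl replicate 1 against 83.9% and 87.2% in the other controls, and 51.8%, 58.3% and 76.8% in Rb2.

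**Figure D4:**
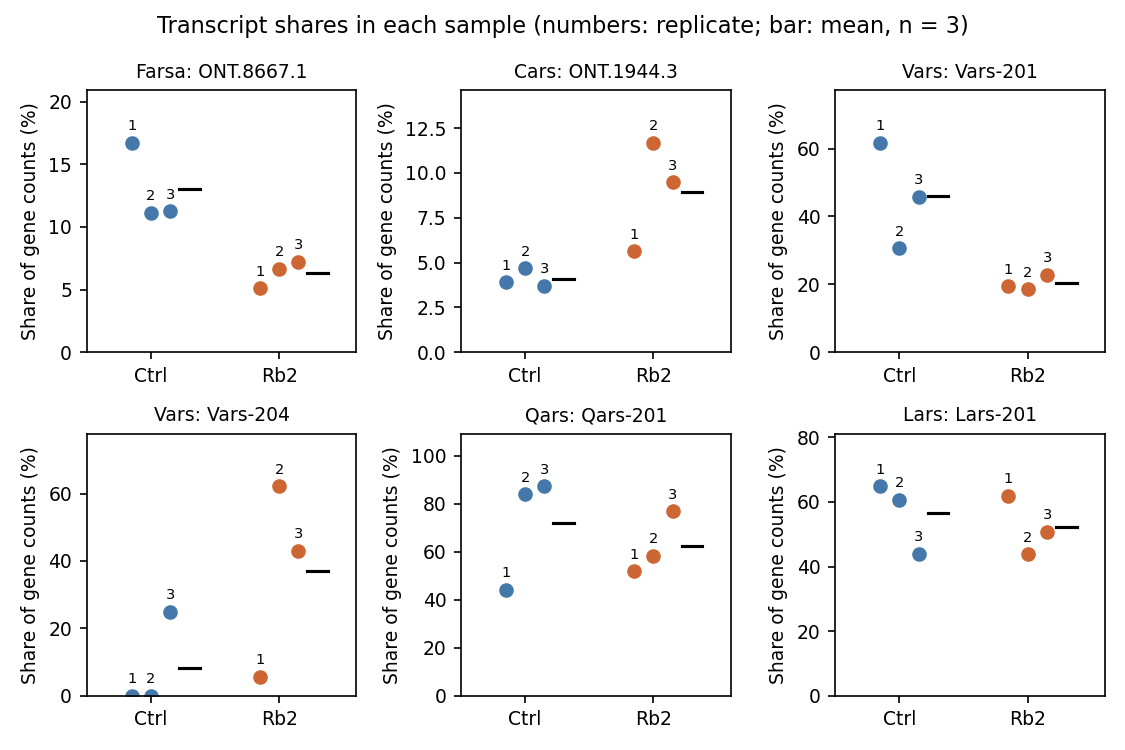
Share of the gene's counts taken by a named transcript, in percent, in each Ctrl (blue) and Rb2 (orange) sample, with the replicate number at each point and a bar at the group mean. The Farsa, Cars and Vars-201 shares are apart between the groups, and the Lars-201, Vars-204 and Qars-201 shares overlap.

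The calls in this family were close to the threshold. Over 20 other settings, Ears2 was called in 15, Lars in 13 and Eprs in 9, and each kept its direction in all 20. Besides the settings named above, Eprs was not called with upper-quartile factors (adjusted p = 0.0722), limma-voom (0.0507) or known genes only (0.0741). Sars was called lower in 6 and Farsb higher in 5.

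**Figure D5:**
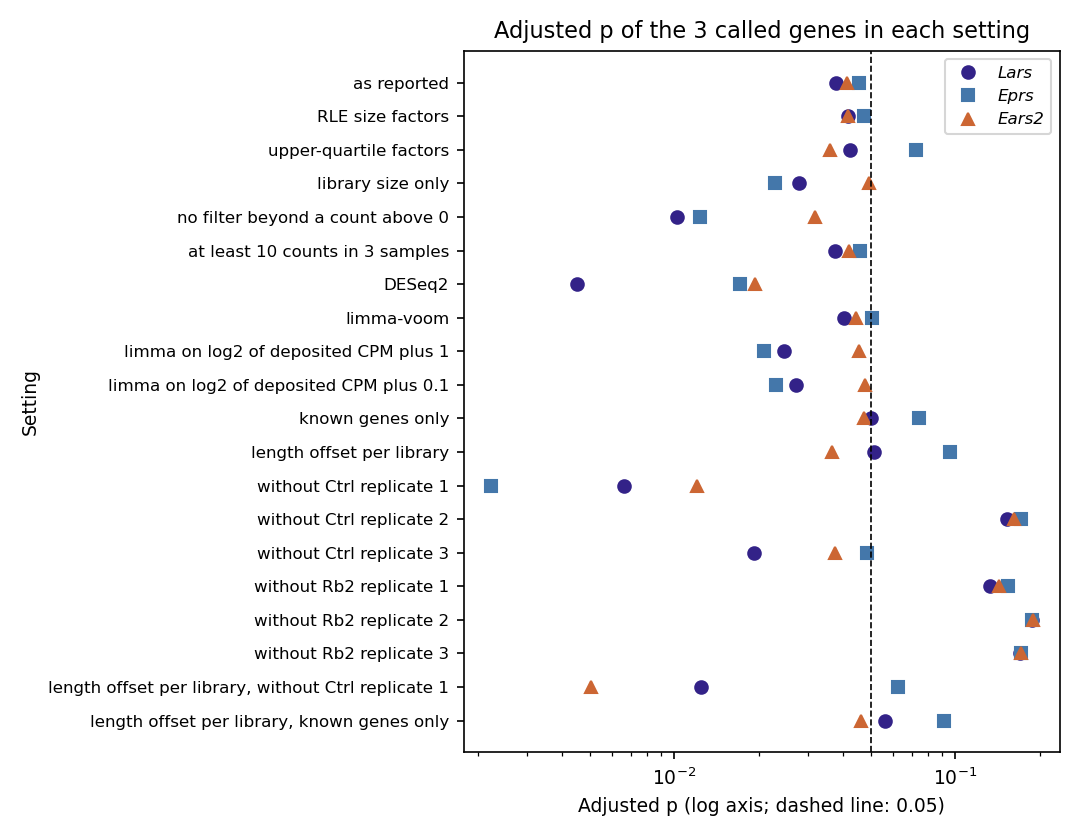
Adjusted p of Lars, Eprs and Ears2 in the reported fit (top) and in alternative settings, on a log axis with a dashed line at 0.05. The replicate block, in which none of these genes was called, is not drawn. The points of all 3 genes stand right of the line without Ctrl replicate 2 or any Rb2 replicate. They stand left of it without Ctrl replicate 1, but with the length offset added to that setting only Lars and Ears2 do.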

How the data were processed

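RNA-seq of 6 H9c2 samples (3 Ctrl, 3 Rb2) was used. The authors deposited whole-number counts for genes and transcripts, with lengths, and the same counts as CPM, scaled to the column total without length (checked, largest difference 4.91e-11). The submitters' processing notes list HISAT2, DESeq2 and mm10, a mouse build, without versions or roles. Known genes carry rat identifiers, so the build is unsettled and no coordinates come from the files. Which counter, annotation version and strand setting were used is not given in the sources used here. Both tables hold per-sample columns (18 in each) that match no sample here and were not used.

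Tests ran over all genes in edgeR 4.0.16 (R 4.3.3): a robust quasi-likelihood fit with a group term, after filterByExpr and TMM scaling, with Benjamini-Hochberg adjustment. An adjusted p under 0.05 was a call. CPM printed per gene are TMM-scaled. The standard error (SE) of a log2 fold change was back-calculated as its absolute value over the square root of the F statistic of the test. Transcript shares were tested with diffSpliceDGE. The fits were tested on simulated data first. A count of 3, the limit that a count of 0 allows, was 0.341 to 0.578 CPM, covering counting error only. Alternatives used DESeq2 1.42.0, limma 3.58.1, other scalings and filters, the replicate block, a length offset (loess span 0.5) and each sample left out.

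The genes and lists were chosen with earlier results of these data known. Statistics are given for called genes and, in each role group, for the 3 genes with the smallest p and the most abundant per kb; from each list, for called genes, or the most abundant where none was called. The genes named for transcript shares and the subunit ratio were chosen after their values were seen. Promoter windows are from RefSeq (GRCr8); Dars, Rars and Gars have no entry. Of the 39 genes 1 counts in the totals, sums and medians and is otherwise not reported here.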

Additional observations from a re-analysis of the deposited data

How the results depend on the processing

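Of 678 values of single genes under 18 planned settings and 2 chosen after seeing the data, 588 kept their direction and their side of the threshold, 23 lost a call, 20 gained one and 47 changed sign, none of these with an adjusted p under 0.05. The 2 genes called higher became 1 with upper-quartile factors, with limma-voom and with known genes only, and 0 with the length offset, over all genes or known genes only, and became 3 without the filter and with limma on deposited log2 CPM at either pseudocount. The 1 called lower became 2 without the filter, with DESeq2 and with the length offset. With the length offset and without Ctrl replicate 1, 1 was higher and 8 were lower, where 3.79% and 4.82% of all genes were called. Leaving out each sample gave 0 to 5 higher and 0 to 3 lower, with 0 in both directions without Ctrl replicate 2 or any Rb2 replicate. Over the same fits 0 to 605 of all genes were called higher and 3 to 291 lower, against 219 and 93. DESeq2 called 3 of these genes' transcripts and 310 of all 16679, where edgeR called 0 of either. The cytosolic median of -0.07 became 0.042 with library sizes alone, 0.048 and 0.049 with limma on deposited log2 CPM at pseudocounts 1 and 0.1, -0.19 with the length offset over all genes or known genes only, -0.15 with that offset and without Ctrl replicate 1, and -0.072 to 0.036 with each sample left out. The mitochondrial median of 0.18 was 0.052 without the filter, 0.29 with library sizes alone, 0.27 with limma at pseudocount 0.1, 0.078 with the length offset, 0.076 with that offset on known genes only, -0.0095 with the length offset and without Ctrl replicate 1, and 0.072 to 0.32 with each sample left out.

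Log2 fold changes near 0 changed sign as follows. With library sizes alone Yars was 0.049, Nars 0.11, Kars 0.010, Mars 0.030 and Hars 0.035. In limma with pseudocount 1 Yars was 0.049, Nars 0.11, Kars 0.019, Mars 0.038 and Hars 0.047, and with 0.1 they were 0.049, 0.11, 0.020, 0.039 and 0.048. Nars was 0.017 without the filter, and Iars2 was -0.021 with upper-quartile factors and -0.022 with known genes only. With the length offset Iars2 was -0.11, Pars2 -0.020, Iars -0.044 and Tars -0.0034. On known genes only that offset gave Iars2 -0.11, Pars2 -0.025, Gars -0.0014, Iars -0.037 and Tars -0.0068. With that offset and without Ctrl replicate 1, Vars was 0.076, Pars2 -0.15, Gars -0.11, Iars -0.11 and Tars -0.17. With each sample left out, Vars ran from -0.42 to 0.29, Wars from -0.27 to 0.018, Tars from -0.020 to 0.26, Kars from -0.18 to 0.029, Iars from -0.076 to 0.27, Nars from -0.040 to 0.046, Iars2 from -0.18 to 0.27, Mars from -0.16 to 0.025, Hars from -0.17 to 0.059 and Cars2 from -0.0071 to 0.35. The cause was not tested.

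Same-numbered samples did not deviate together (correlations -0.067, -0.061 and -0.0067), so the numbers are not taken as pairs. With the replicate block 0 of these genes were called higher and 0 lower, where 12 and 21 of all genes were, and the calls of the other lists were lost too (highest adjusted p 0.0943). Depth limits the precision of the mitochondrial genes, 12 of which averaged under 10 CPM.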
